A study of Mus musculus with 21 samples.

Results

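Collagen chain genes are the genes whose symbol is Col, a type number, the letter a and a chain number. Of 56691 genes in the deposited table, 44 met this rule, and 23 of them had a mean FPKM (counts scaled by exonic length and by the library total) of at least 0.5 over all libraries and were tested. The study compared hearts of mice without and with a subcutaneous 4T1 tumor, grown from a murine breast cancer cell line, after doxorubicin (DOX), an anthracycline that damages DNA and is toxic to the heart. The groups were Control (no tumor, saline, 5 libraries), DOX (no tumor, DOX, 5 libraries), Tb (4T1 tumor, saline, 6 libraries) and Tb-DOX (4T1 tumor, DOX, 5 libraries). According to the methods of the study, DOX was given at 5 mg per kg in 3 weekly injections. The sources used here give neither strain, sex nor age, and they do not say whether libraries of a group came from separate mice, so p-values measure the spread between libraries.

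Collagens are trimers of chains that wind into a triple helix. Fibrillar collagens (types I, III, V and XI) form the fibers that hold heart muscle together and are made mainly by fibroblasts, type IV forms the sheet of basement membranes around muscle cells and vessels, and type VI forms beaded filaments between the sheet and the fibers. Chains are hydroxylated, folded and exported from the cell, trimmed outside it, and cross-linked by lysyl oxidases, and collagenases take the fibers apart.

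Every label names the cell line 4T-1 as the source, whereas the study describes hearts. The 8 cardiomyocyte markers had summed FPKM of 12961 to 20657 in the libraries, and none of these markers was at 0. The 6 markers of tumor epithelium summed to 0.11 to 2.46. Counts per library were 13521200 to 18601445. Some libraries stood apart. Counts of library pairs were compared by chi-square, divided by the degrees of freedom. The quotient was at least 82.6 for Control-3 against the other Control libraries, which gave 5.70 to 9.54 among themselves. It was 70.8 to 97.9 for Tb-5, 32.4 to 70.8 for Tb-6 and 20.2 to 37.8 for Tb-DOX-4 against the rest of their groups. Against the other DOX libraries it was 32.4 to 46.4 for DOX-3, 32.4 to 37.0 for DOX-4 and 23.8 to 46.4 for DOX-5. DOX-1 against DOX-2 gave 9.25. *Cd3e*, a T cell receptor component, was at 66.7 FPKM in DOX-4 and 9.74 in Tb-5, while the other 6 thymocyte and T cell markers were each at 0.21 or below in DOX-4 and at 1.36 or below in Tb-5. Results without DOX-4 and Tb-5, without Control-3, DOX-3 and Tb-5, and without these 3 and Tb-6 are given where they differ.

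The 23 chains above the minimum covered 8 of 11 fibrillar, 4 of 6 type IV, 4 of 6 type VI, 3 of 9 fibril-associated (FACIT), 2 of 2 multiplexin, 1 of 3 short-chain network and 1 of 4 transmembrane members. None of the 3 remaining members passed it. In Control hearts the most abundant chains were *Col4a1* at 48.1 ± 6.36 FPKM and *Col4a2* at 39.0 ± 8.03 (SD, n = 5), partners in the common basement membrane trimer, followed by *Col3a1*, the only chain of type III collagen, at 22.9 ± 6.72. The order of group means was Control, Tb, Tb-DOX, DOX from high to low in 17 of the 23 chains. DOX had the lowest mean in 20 chains and Control the highest in 19. The shares of all tested genes with these orders were not counted. FPKM are scaled by library totals, with which the median log2 fold change of all tested genes was −0.14 in DOX against Control. In Tb-DOX against DOX it was 0.18.

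**Figure D1:**
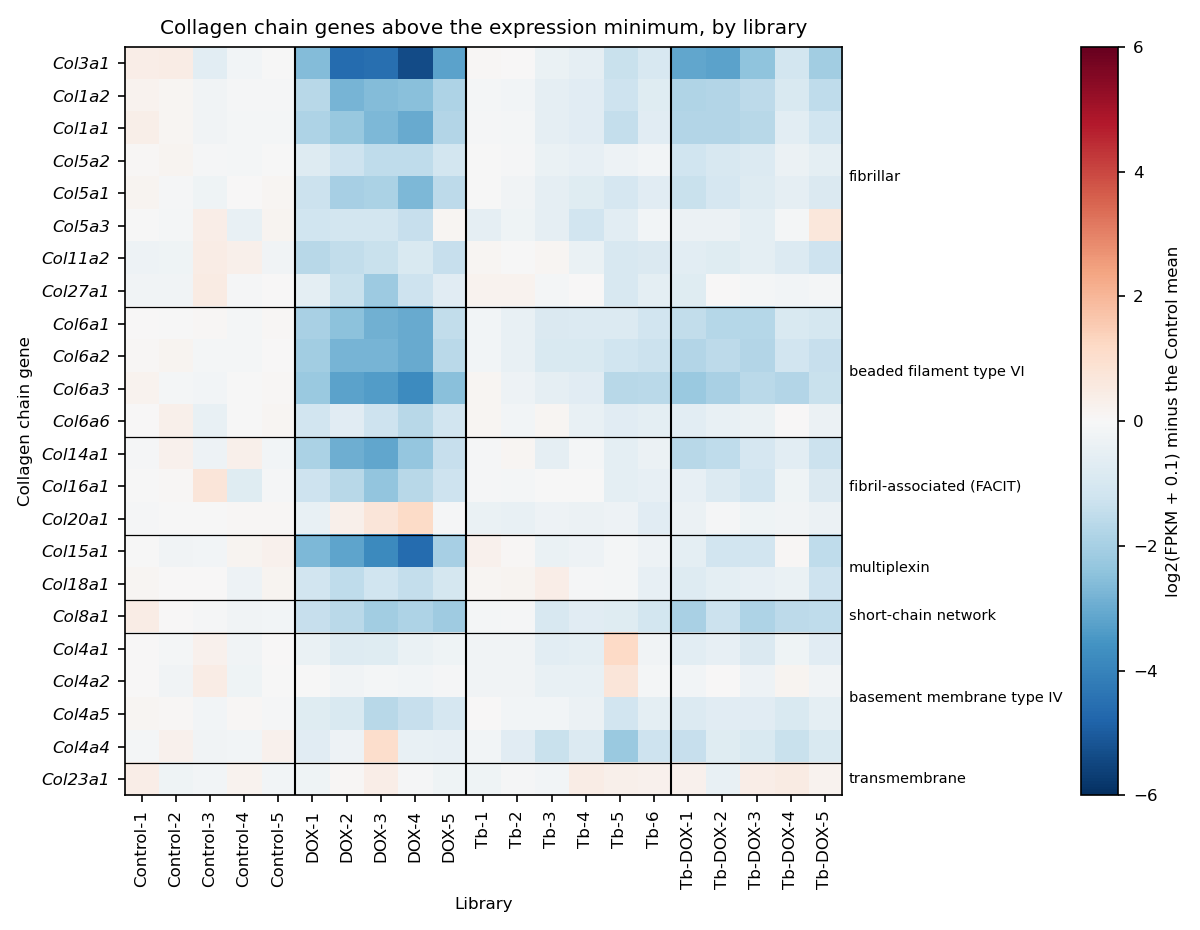
Difference of log2(FPKM + 0.1) from the Control mean (color) for the 23 collagen chain genes above the expression minimum (rows, by class) in each of the 21 libraries (columns, by group). The 5 DOX libraries are blue over most rows, the Tb-DOX libraries less so, and Col4a1, Col4a2, Col4a4 and Col23a1 stay near white apart from Tb-5 and, for Col4a4, DOX-3 and the tumor-bearing libraries.

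To evaluate the collagen genes under DOX without a tumor, DOX was compared with Control. Of the 23 chains, 16 fell and 0 rose, with a median log2 fold change of −1.43, against 0.00 for the 13990 genes tested. The largest falls were those of *Col3a1* (13.1-fold lower), *Col6a3* (8.19-fold lower) and *Col15a1* (7.67-fold lower). A gene was called at an adjusted p under 0.05 and a log2 fold change of at least 1 in edgeR's quasi-likelihood test, by which 5.79% of the tested genes fell and 4.16% rose. An adjusted p under 0.05 at any fold was reached by 19 of the 23 chains and by 36.2% of the tested genes. In 18 chains every DOX library was below every Control library, as in 19.1% of the tested genes. In bulk RNA, fewer fibroblasts and less collagen RNA per fibroblast cannot be told apart.

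Fibrillar chains fell in 7 of 8 cases, with a median log2 fold change of −1.60. *Col3a1* (GRCm39 chr1:45350698-45388866, plus strand) measured 29.4, 29.7, 13.96, 19.8 and 21.5 FPKM in the Control libraries and 3.54, 0.81, 0.87, 0.44 and 2.3 in the DOX libraries. The groups were far apart, with DOX-1 and DOX-5 highest among the treated hearts. The log2 fold change of *Col3a1* was −3.71 ± 0.50 (SE, adjusted p = 1.74e-05). *Col1a1* (chr11:94827050-94843868, plus strand), the chain present in 2 copies in the type I trimer, measured 11.8, 10.1, 8.01, 8.44 and 8.65 FPKM in Control and 2.47, 1.85, 1.34, 1.04 and 2.65 in DOX. Its partner *Col1a2* (chr6:4504814-4541544, plus strand) measured 13.7, 13.1, 10.1, 11.5 and 11.5 FPKM in Control and 3.75, 1.62, 1.91, 1.98 and 3.26 in DOX. Neither gene's groups overlapped, and both chains of type I collagen were lowered to a like degree, with log2 fold changes of −2.19 ± 0.27 (SE, adjusted p = 1.12e-05) for *Col1a1* and −2.12 ± 0.23 (SE, adjusted p = 3.21e-06) for *Col1a2*.

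Type V collagen starts fibrils and limits their width. *Col5a1* measured 5.74, 4.89, 4.31, 5.16 and 5.47 FPKM in Control and 2.04, 1.21, 1.28, 0.69 and 1.65 in DOX. *Col5a2* measured 4.83, 5.1, 4.28, 4.24 and 4.43 FPKM in Control and 2.67, 1.87, 1.52, 1.5 and 2.07 in DOX. Both sets of libraries were separate, and *Col5a1* fell more (−1.76 ± 0.23, SE, adjusted p = 1.25e-05) than *Col5a2* (−1.11 ± 0.17, SE, adjusted p = 5.51e-05), although the difference between the chains was not tested. The third chain, *Col5a3*, measured 1.78, 1.62, 2.41, 1.28 and 2.05 FPKM in Control and 0.73, 0.79, 0.78, 0.62 and 1.94 in DOX, and DOX-5 lay within the Control range. Its log2 fold change of −0.76 ± 0.30 (SE, adjusted p = 0.0477) was under the fold limit. *Col11a2*, a type XI chain, fell by 1.43 on the log2 scale (SE 0.26) and *Col27a1*, a fibrillar chain best known from cartilage, by 1.17 (SE 0.31), both from Control means near 1 FPKM. The calls of *Col5a2* and *Col27a1* were lost without DOX-3, when the count of falling chains was 14.

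Type VI chains fell in 4 of 4 cases, with a median of −2.21. The genes *Col6a1* (chr10:76544626-76562002, minus strand) and *Col6a2* (chr10:76431596-76459464, minus strand) are neighbors, and each trimer takes their products together with a longer chain such as that of *Col6a3* (chr1:90693645-90771693, minus strand). *Col6a1* measured 17.03, 16.4, 17.3, 15.3 and 17.5 FPKM in Control and 4.22, 3.0, 2.17, 1.98 and 6.03 in DOX. *Col6a2* measured 7.26, 7.75, 6.42, 6.37 and 7.0 FPKM in Control and 1.55, 0.93, 0.93, 0.76 and 2.22 in DOX. *Col6a3* measured 4.64, 3.66, 3.44, 3.89 and 4.12 FPKM in Control and 0.75, 0.34, 0.30, 0.19 and 0.60 in DOX. For each of the 3 genes the Control libraries were tightly grouped, and the DOX libraries lay apart below them with DOX-4 lowest. The log2 fold changes were −2.12 ± 0.26 (SE, adjusted p = 8.21e-06) for *Col6a1*, −2.30 ± 0.26 (SE, adjusted p = 3.74e-06) for *Col6a2* and −3.03 ± 0.36 (SE, adjusted p = 6.17e-06) for *Col6a3*. *Col6a6*, another long chain, had a Control mean of 1.20 FPKM and fell by 1.18 (SE 0.23).

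Multiplexins sit at the border of basement membranes and carry sugar chains, and both fell. *Col15a1* (chr4:47208161-47313167, plus strand) measured 11.6, 10.3, 10.5, 13.2 and 13.98 FPKM in Control and 1.75, 1.25, 0.74, 0.39 and 2.9 in DOX, without overlap. *Col15a1* had a log2 fold change of −2.94 ± 0.36 (SE, adjusted p = 9.69e-06). *Col18a1*, whose end fragment is endostatin, had Control and DOX means of 1.10 ± 0.145 and 0.400 ± 0.0628 FPKM (SD, n = 5 each) and fell by 1.32 (SE 0.20). *Col18a1* overlaps *Slc19a1* on the other strand, which had 527 counts against 1917 over all libraries, and the strand setting of the counting is not given in the sources used here. The short-chain network gene *Col8a1*, known from vessel walls, measured 10.7, 7.93, 7.34, 6.74 and 7.05 FPKM in Control and 2.95, 2.5, 1.77, 2.12 and 1.7 in DOX, and its log2 fold change was −1.70 ± 0.23 (SE, adjusted p = 1.62e-05). FACIT collagens bind to the surface of fibrils, and 2 of their 3 tested genes fell, *Col14a1* by 2.22 (SE 0.30) and *Col16a1* by 1.68 (SE 0.26). The third, *Col20a1*, measured 0.80, 0.83, 0.82, 0.87 and 0.87 FPKM in Control and 0.58, 1.04, 1.43, 2.01 and 0.78 in DOX, with DOX-4 highest and DOX-1 and DOX-5 below every Control library. Its log2 fold change of 0.61 ± 0.24 (SE, adjusted p = 0.0471) was under the fold limit, and it shares 741 bases on its strand with *9230112E08Rik*, which had 2273 counts against its own 1344.

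Of the type IV chains 0 of 4 were called, with a median of −0.17, but *Col4a5* lay just short of the fold limit. *Col4a1* and *Col4a2* lie head to head on opposite strands of chromosome 8, at 11248423 to 11362826 and 11362805 to 11499287, and overlap by 22 bases. *Col4a1* measured 48.8, 43.5, 57.8, 41.4 and 49.2 FPKM in Control and 36.7, 27.7, 28.9, 36.3 and 39.5 in DOX. *Col4a2* measured 39.5, 32.9, 52.1, 32.05 and 38.3 FPKM in Control and 38.1, 32.9, 35.0, 34.4 and 36.8 in DOX. The DOX libraries of *Col4a1* were all below the Control libraries, whereas those of *Col4a2* lay within the Control range. The fit gave −0.36 ± 0.27 (SE, adjusted p = 0.317) for *Col4a1* and 0.01 ± 0.19 (SE, adjusted p = 0.969) for *Col4a2*, both uncalled. *Col4a5*, a chain of the X chromosome found in specialized basement membranes, had means of 10.8 ± 0.823 and 4.98 ± 1.27 FPKM (SD, n = 5 each), a log2 fold change of −0.97 ± 0.19 (SE, adjusted p = 4.97e-04) and no overlap, and missed only the fold limit. *Col4a5* was called, at −1.02, with a minimum of 5 FPKM, at −1.12 with library totals, with both limma fits, and without Control-3, DOX-1 or DOX-2. *Col4a4*, which pairs with *Col4a3*, measured 1.4, 1.86, 1.31, 1.35 and 1.84 FPKM in Control and 0.93, 1.22, 3.26, 1.1 and 1.05 in DOX, with DOX-3 above all others and the other 4 DOX libraries below the Control range. Its log2 fold change was 0.06 ± 0.33 (SE, adjusted p = 0.903), and −0.35 without DOX-3. The transmembrane chain *Col23a1* was uncalled at 0.09 ± 0.23 (SE, adjusted p = 0.787).

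Two-sided exact permutation tests of log2(FPKM + 0.1) gave p = 0.00794, the smallest that 5 against 5 libraries allow, for *Col1a1*, *Col1a2*, *Col3a1*, *Col5a1*, *Col5a2*, *Col6a1*, *Col6a2*, *Col6a3*, *Col8a1*, *Col15a1* and *Col4a1*. The exact permutation p was 0.484 for *Col4a2*, 0.651 for *Col4a4*, 0.0317 for *Col5a3* and 0.325 for *Col20a1*. The smallest p is reached whenever DOX and Control libraries do not overlap in FPKM, as in 25.2% of the tested genes. FPKM are scaled by library totals, with which the median log2 fold change of all tested genes was −0.14. *Col4a1* reached the smallest p here, whereas edgeR's quasi-likelihood test gave it an adjusted p of 0.317 and no call.

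**Figure D2:**
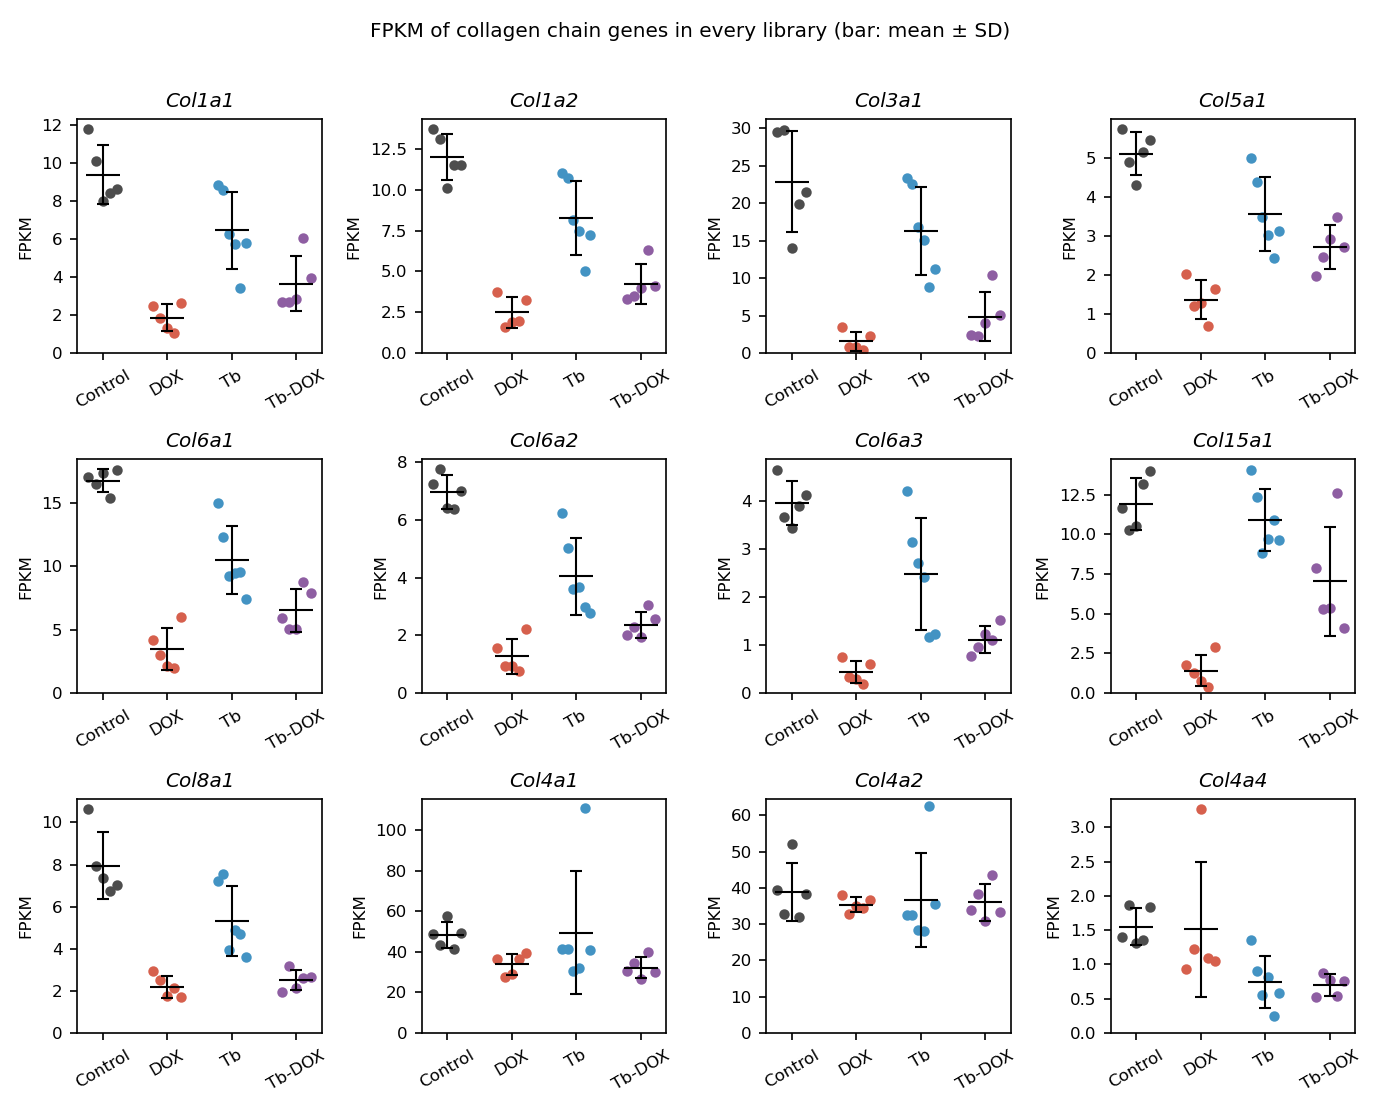
FPKM (y axes from 0) of 12 collagen chain genes in every library (points) by group (x axes), with the mean and SD as bars. The DOX points lie below all Control points in 10 of the 12 genes, and Col4a2 and Col4a4 are the exceptions, with Tb-5 high for Col4a1 and Col4a2 and DOX-3 high for Col4a4.

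The promoters of 5 chains that fell are shown because these genes moved together in DOX hearts and belong to different classes. Each line holds the 250 bases before the RefSeq gene start on GRCm38.p6, a build other than that of the table, 5′ to 3′ on the gene's strand. Capitals mark matches to any of 4 short motifs searched on both strands. The motif bound by NF-Y is spelled CCAAT. The common form of the TATA box was searched as TATAAA. An AP-1 type site was searched as TGACTCA. The GC box, which Sp1 can bind, was searched as GGGCGG. *Col3a1*, *Col6a3* and *Col15a1* had the largest falls, *Col1a2* stands for type I collagen, and *Col6a1* was the most abundant type VI gene. The windows are chr1:45311288-45311537 (*Col3a1*, plus strand), chr1:90843972-90844221 (*Col6a3*, minus strand), chr4:47207762-47208011 (*Col15a1*, plus strand), chr6:4505368-4505617 (*Col1a2*, plus strand) and chr10:76726045-76726294 (*Col6a1*, minus strand).
Col3a1: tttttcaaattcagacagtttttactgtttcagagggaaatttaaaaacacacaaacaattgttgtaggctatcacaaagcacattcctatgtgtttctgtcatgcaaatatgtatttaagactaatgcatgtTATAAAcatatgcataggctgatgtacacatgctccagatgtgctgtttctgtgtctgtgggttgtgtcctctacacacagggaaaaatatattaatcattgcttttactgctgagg
Col6a3: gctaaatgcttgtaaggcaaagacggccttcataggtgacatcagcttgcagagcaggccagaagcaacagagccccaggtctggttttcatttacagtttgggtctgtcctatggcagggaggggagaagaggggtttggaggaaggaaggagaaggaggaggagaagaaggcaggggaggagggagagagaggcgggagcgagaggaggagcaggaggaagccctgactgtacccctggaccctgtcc
Col15a1: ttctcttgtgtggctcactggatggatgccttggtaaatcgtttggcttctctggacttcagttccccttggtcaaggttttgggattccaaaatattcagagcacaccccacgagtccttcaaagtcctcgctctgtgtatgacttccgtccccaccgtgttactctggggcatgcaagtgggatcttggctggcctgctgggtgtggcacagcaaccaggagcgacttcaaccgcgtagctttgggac
Col1a2: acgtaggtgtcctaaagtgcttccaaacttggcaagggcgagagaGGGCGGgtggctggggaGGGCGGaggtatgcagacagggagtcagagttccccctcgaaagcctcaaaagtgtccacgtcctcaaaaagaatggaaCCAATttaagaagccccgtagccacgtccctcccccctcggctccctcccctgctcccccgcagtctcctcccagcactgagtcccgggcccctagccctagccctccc
Col6a1: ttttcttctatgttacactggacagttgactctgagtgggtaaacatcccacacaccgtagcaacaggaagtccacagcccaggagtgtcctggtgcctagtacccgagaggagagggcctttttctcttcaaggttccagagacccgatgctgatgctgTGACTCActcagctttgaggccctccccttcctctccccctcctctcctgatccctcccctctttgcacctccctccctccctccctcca

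These windows had little in common. *Col3a1* held the TATA box, *Col1a2* the GC box and the NF-Y motif, *Col6a1* the AP-1 type site, and *Col6a3* and *Col15a1* none of them. Of the 16 chains that fell, 13 had an entry, and without an entry were *Col1a1*, *Col5a2* and *Col14a1*. The GC box was in 9 of the 13 chains (69.2%) and in 35.4% of the 27025 genes with an entry. It was also in 13 of the 20 tested chains with an entry (65.0%), among them *Col4a2*, *Col4a5*, *Col5a3* and *Col23a1*, which were not called. The NF-Y motif was in 3 of the 13 chains and 37.5% of all genes, TATAAA in 2 and 14.3%, and the AP-1 type site in 1 and 5.16%. These are letter matches, and no binding was measured. Some genes, such as *Col6a2* and *Col18a1*, had more than 1 window and were counted if any window matched.

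In the tumor-bearing state, Tb-DOX was compared with Tb, which shares no library with the comparison above. Of the 23 chains, 4 fell and 0 rose: *Col3a1*, *Col6a3*, *Col8a1* and *Col14a1*. The shares of all tested genes that fell and rose were 0.665% and 0.443%. At any fold, 7 chains had an adjusted p under 0.05, as did 4.72% of the tested genes. The median log2 fold change of the chains was −0.60, against −0.02 for all tested genes, and 15 chains had an unadjusted p under 0.05, as did 20.4% of the tested genes. Every Tb-DOX library was below every Tb library in 2 chains, *Col8a1* and *Col14a1*, as in 2.04% of the tested genes.

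*Col3a1* ranged from 8.81 to 23.3 FPKM in the 6 Tb libraries with a median of 15.97, and measured 2.49, 2.33, 4.0, 10.4 and 5.08 in Tb-DOX. Tb-DOX-4 lay within the Tb range and the other 4 libraries below it. *Col3a1* had a log2 fold change of −1.79 ± 0.44 (SE, adjusted p = 0.0235). *Col6a3* ranged from 1.17 to 4.21 FPKM in Tb (median 2.56) and measured 0.77, 0.96, 1.22, 1.1 and 1.52 in Tb-DOX, with Tb-5 and Tb-6 at the level of the treated hearts. The log2 fold change of *Col6a3* was −1.16 ± 0.32 (SE, adjusted p = 0.0393). *Col8a1* ranged from 3.62 to 7.54 FPKM in Tb (median 4.79) and measured 1.96, 3.17, 2.12, 2.59 and 2.65 in Tb-DOX, with a log2 fold change of −1.11 ± 0.21 (SE, adjusted p = 0.00576). *Col14a1* ranged from 2.45 to 4.04 FPKM in Tb (median 3.24) and measured 1.14, 1.23, 1.81, 2.43 and 1.47 in Tb-DOX. Its log2 fold change of −1.0 ± 0.27 (SE, adjusted p = 0.0370) sat at the fold limit.

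Type I collagen was close to a call. *Col1a2* ranged from 5.03 to 11.03 FPKM in Tb (median 7.82) and measured 3.33, 3.47, 3.97, 6.3 and 4.09 in Tb-DOX, and its log2 fold change of −0.99 ± 0.22 (SE, adjusted p = 0.0137) was just under the fold limit. *Col1a1* ranged from 3.43 to 8.86 FPKM in Tb (median 6.04) and measured 2.72, 2.67, 2.87, 6.06 and 3.96 in Tb-DOX. Tb-5 was the low Tb library and Tb-DOX-4 the high treated library for both genes, and *Col1a1* had a log2 fold change of −0.84 ± 0.25 (SE, adjusted p = 0.0568). Of the other fibrillar chains, *Col5a2* passed the adjusted p at −0.57 ± 0.16 (SE, adjusted p = 0.0431), and *Col5a1* did not at −0.41 ± 0.21 (SE, adjusted p = 0.270). *Col5a3* had a positive value of 0.48 ± 0.28 (SE, adjusted p = 0.349).

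The abundant type VI chains were uncalled. *Col6a1* ranged from 7.43 to 14.98 FPKM in Tb (median 9.5) and measured 5.89, 5.04, 5.07, 8.72 and 7.89 in Tb-DOX. *Col6a2* ranged from 2.77 to 6.24 FPKM in Tb (median 3.63) and measured 2.0, 2.29, 1.96, 3.04 and 2.58 in Tb-DOX. The groups overlapped for both, with log2 fold changes of −0.71 ± 0.24 (SE, adjusted p = 0.0893) for *Col6a1* and −0.79 ± 0.24 (SE, adjusted p = 0.0602) for *Col6a2*. *Col15a1* ranged from 8.81 to 14.0 FPKM in Tb (median 10.3) and measured 7.86, 5.28, 5.34, 12.6 and 4.07 in Tb-DOX, where Tb-DOX-4 reached the upper end of the Tb range. The log2 fold change of *Col15a1* was −0.68 ± 0.32 (SE, adjusted p = 0.233). *Col18a1* passed the adjusted p at −0.79 ± 0.18 (SE, adjusted p = 0.0170).

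Type IV chains were again uncalled. *Col4a1* ranged from 30.5 to 111 FPKM in Tb (median 40.9) and measured 30.3, 34.5, 26.6, 39.7 and 29.8 in Tb-DOX. *Col4a2* ranged from 28.2 to 62.6 FPKM in Tb (median 32.6) and measured 33.9, 38.5, 30.9, 43.5 and 33.4 in Tb-DOX. Tb-5 was the top library for both, and their log2 fold changes were −0.68 ± 0.26 (SE, adjusted p = 0.146) for *Col4a1* and −0.06 ± 0.18 (SE, adjusted p = 0.876) for *Col4a2*. Without Tb-5 the log2 fold change of *Col4a1* was −0.19 and that of *Col4a2* 0.21. *Col4a4* had means of 0.743 ± 0.377 (n = 6) and 0.696 ± 0.158 (n = 5) FPKM and a value of −0.09 ± 0.33 (SE, adjusted p = 0.905).

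The calls in the tumor-bearing state depended on single libraries. None of the 4 remained without Tb-1 or without Tb-2, and 1 remained without Tb-DOX-1, Tb-DOX-2, Tb-DOX-3 or Tb-DOX-5, whereas 5 chains were called without Tb-5, Tb-6 or Tb-DOX-4. Exact permutation tests, whose smallest p for 6 against 5 libraries is 0.00216, gave p = 0.00433 for *Col3a1* and *Col8a1*, 0.0303 for *Col6a3*, 0.00866 for *Col1a2* and *Col5a2*, and 0.942 for *Col4a2*. Among the other uncalled chains the exact permutation p, unadjusted, was 0.0130 for *Col6a2*, 0.0173 for *Col6a1*, 0.0260 for *Col1a1*, 0.0368 for *Col15a1*, 0.0433 for *Col20a1*, 0.110 for *Col5a1*, 0.119 for *Col4a1*, 0.165 for *Col5a3* and 0.946 for *Col4a4*.

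**Figure D3:**
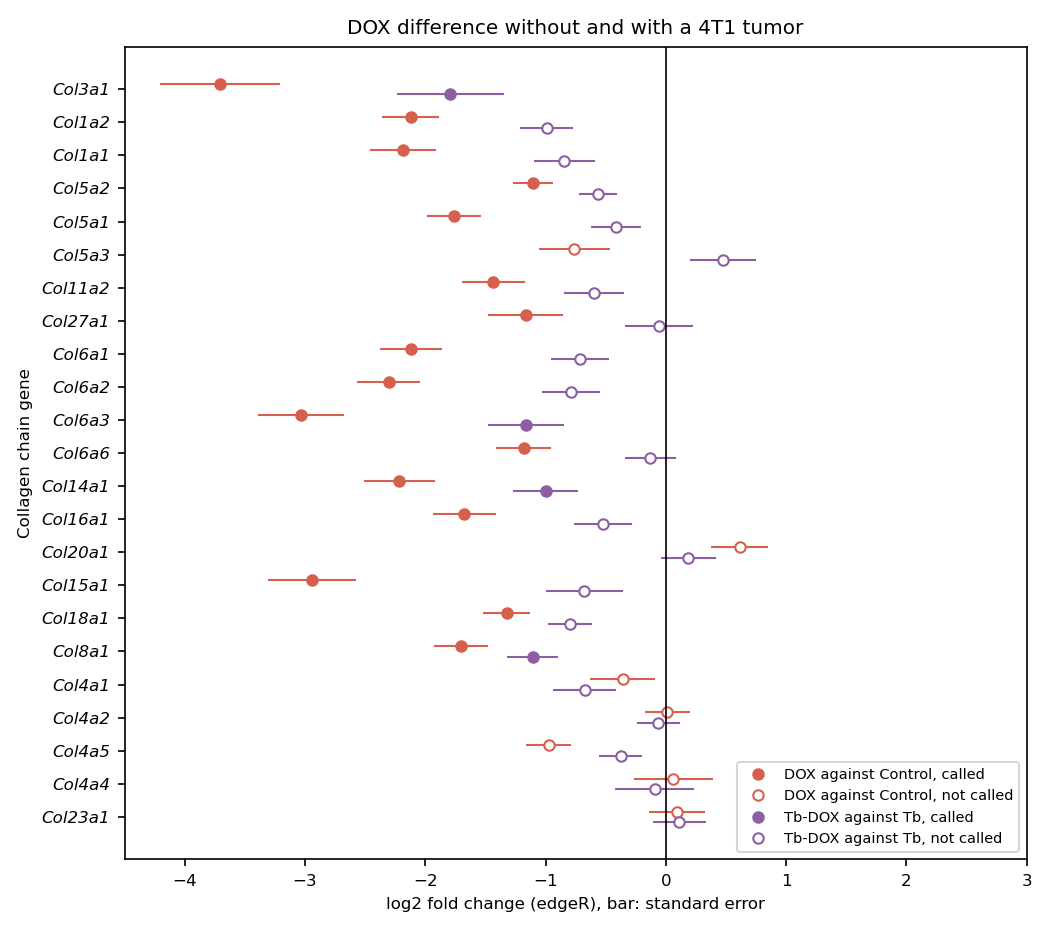
Log2 fold change (x axis, edgeR, bars are SEs) of the 23 collagen chain genes (rows, by class) for DOX against Control (red) and Tb-DOX against Tb (purple), filled where called. The 16 filled red points lie at −1.11 or below, the 4 filled purple points at −1.0 or below, and the type IV genes lie near 0 apart from Col4a5 and Col4a1.

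Whether the DOX difference itself differed between the states was tested with the interaction, the log2 fold change with a tumor minus that without. Of the 23 chains, 9 had a called positive interaction, so the DOX difference was smaller in the tumor-bearing state, and 0 had a negative one. Of all tested genes, 2.04% had a called positive interaction and 1.85% a called negative one. The largest was that of *Col15a1* at 2.26 ± 0.47 (SE, adjusted p = 0.0129). All 4 tested type VI chains were among the 9, with *Col6a3* at 1.87 ± 0.46 (SE, adjusted p = 0.0212), *Col6a2* at 1.51 ± 0.35 (SE, adjusted p = 0.0164), *Col6a1* at 1.41 ± 0.34 (SE, adjusted p = 0.0205) and *Col6a6* at 1.05 ± 0.31 (SE, adjusted p = 0.0366). Fibrillar chains contributed *Col1a1* at 1.35 ± 0.36 (SE, adjusted p = 0.0288), *Col5a1* at 1.35 ± 0.30 (SE, adjusted p = 0.0156) and *Col1a2* at 1.13 ± 0.31 (SE, adjusted p = 0.0310), and the FACIT chain was *Col16a1* at 1.15 ± 0.35 (SE, adjusted p = 0.0435). *Col3a1*, with the greatest fall in both states, was not called at 1.92 ± 0.62 (SE, adjusted p = 0.0545), nor was *Col14a1* at 1.22 ± 0.39 (SE, adjusted p = 0.0533).

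The type IV chains had interaction values of −0.32 (*Col4a1*), −0.08 (*Col4a2*), −0.15 (*Col4a4*) and 0.60 (*Col4a5*), none of them called. *Col8a1* was uncalled at 0.60 ± 0.30 (SE, adjusted p = 0.196). The number of called interactions was 5 without DOX-3, DOX-4 or Tb-DOX-4, 6 without Control-1, Control-2 or both DOX-4 and Tb-5, and 12 without DOX-1 or DOX-5. Without Control-3, DOX-3, Tb-5 and Tb-6 together it was 4 (*Col15a1*, *Col6a2*, *Col6a3* and *Col5a1*). *Col15a1*, *Col6a1*, *Col6a2*, *Col6a3* and *Col5a1* were called in each of the fits without 1 library.

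The remaining comparisons reuse the same libraries, so their values are not independent of those above. In saline-treated hearts, Tb against Control gave 1 falling chain, *Col4a4*, and 0 rising chains, with 0.122% of the tested genes falling and 3.48% rising. *Col4a4* ranged from 0.25 to 1.35 FPKM in Tb (median 0.700), below the values of 1.31 to 1.86 in Control except in Tb-1. Its log2 fold change was −1.11 ± 0.32 (SE, adjusted p = 0.0408), and the call was lost in 9 of 21 fits without 1 library, those without any of the Control libraries, Tb-3, Tb-4, Tb-5 or Tb-6. The fitted value was below 0 in 21 of 23 chains, as in 51.3% of the tested genes, with a median of −0.42 against −0.01 for all tested genes. *Col6a2* passed the adjusted p at −0.82 ± 0.23 (SE, adjusted p = 0.0380), and *Col6a1* did not at −0.70 ± 0.23 (SE, adjusted p = 0.0817), and in both, as in *Col20a1*, every Tb library was below every Control library, which held for 1.17% of the tested genes. *Col3a1* (−0.54 ± 0.42, SE, adjusted p = 0.477), *Col1a1* (−0.59 ± 0.25, SE, adjusted p = 0.170) and *Col15a1* (−0.16 ± 0.31, SE, adjusted p = 0.801) were uncalled.

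Between the treated groups, Tb-DOX against DOX gave 3 rising chains and 1 falling chain. *Col15a1* rose most, at 2.10 ± 0.36 (SE, adjusted p = 3.43e-04), from 1.75, 1.25, 0.74, 0.39 and 2.9 FPKM in DOX to 7.86, 5.28, 5.34, 12.6 and 4.07 in Tb-DOX, without overlap. *Col3a1* rose at 1.38 ± 0.46 (SE, adjusted p = 0.0428) and *Col6a3* at 1.16 ± 0.35 (SE, adjusted p = 0.0248). *Col4a4* fell at −1.26 ± 0.34 (SE, adjusted p = 0.0138). The shares of all tested genes that rose and fell were 4.37% and 1.25%. At any fold, 9 chains and 17.5% of the tested genes had an adjusted p under 0.05. The median of the chains was 0.62, against −0.01 for all tested genes, and 5 chains had every Tb-DOX library above every DOX library, as in 14.3% of the tested genes. *Col5a1* (0.78 ± 0.22, SE, adjusted p = 0.0188) and *Col14a1* (0.90 ± 0.29, SE, adjusted p = 0.0379) passed the adjusted p with smaller fold changes. So did *Col16a1* (0.83 ± 0.26, SE, adjusted p = 0.0312) and *Col6a6* (0.72 ± 0.23, SE, adjusted p = 0.0304). *Col20a1* passed it in the other direction, at −0.94 ± 0.24 (SE, adjusted p = 0.00936). *Col8a1* did not differ between the treated groups beyond its error (−0.02 ± 0.22, SE, adjusted p = 0.969). Only *Col15a1* was called in each of the 21 fits without 1 library. The count of called chains was 1 without DOX-3, when *Col4a4* was also lost, 2 without DOX-2, DOX-4, Tb-DOX-3 or Tb-DOX-5, and 8 without DOX-5. Without Control-3, DOX-3 and Tb-5, 2 chains were called, *Col15a1* and *Col6a3*, also with Tb-6 left out as well.

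In sum over all 44 chains, FPKM were 218 ± 13.8 in Control, 102 ± 13.4 in DOX, 180 ± 37.9 in Tb (n = 6) and 124 ± 21.2 in Tb-DOX (SD, n = 5 where not stated). The chains took 0.167% of all counts in Control, 0.0738% in DOX, 0.137% in Tb and 0.0907% in Tb-DOX. *Col4a1* and *Col4a2* made up 35.4% to 48.9% of the summed FPKM in the Control libraries and 64.9% to 74.5% in the DOX libraries. With tumors, their share was 36.9% to 71.7% in Tb, where Tb-5 was the highest library, and 51.9% to 60.6% in Tb-DOX. Without this pair the sum was 130 ± 12.4 FPKM in Control, 32.3 ± 7.71 in DOX, 93.8 ± 22.7 in Tb and 55.5 ± 12.7 in Tb-DOX. Fibrillar chains made up 26.6% ± 4.02 of the summed FPKM in Control, 10.7% ± 2.60 in DOX, 23.8% ± 6.87 in Tb and 16.9% ± 3.26 in Tb-DOX. The collagen makeup of the treated hearts was weighted to type IV.

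Ratios of FPKM between chains are given as descriptions with no test. The *Col1a1* to *Col1a2* ratio was 0.782 ± 0.0486 in Control, 0.768 ± 0.233 in DOX, 0.771 ± 0.0462 in Tb and 0.848 ± 0.112 in Tb-DOX, with overlapping ranges. *Col3a1* to *Col1a1*, by contrast, was 1.74 to 2.93 in Control and 0.423 to 1.43 in DOX, and 1.93 to 2.67 in Tb and 0.873 to 1.71 in Tb-DOX. The ranges with and without DOX did not overlap in either state. *Col4a1* to *Col4a2* was 1.11 to 1.32 in Control, 0.827 to 1.08 in DOX, 1.07 to 1.77 in Tb and 0.860 to 0.912 in Tb-DOX, and also separated treated from untreated libraries in each state. *Col6a1* to *Col6a2* had means of 2.42, 2.72, 2.65 and 2.73 in Control, DOX, Tb and Tb-DOX with overlapping ranges. *Col6a3* to *Col6a2* was 0.472 to 0.639 in Control and 0.250 to 0.484 in DOX, which overlapped. *Col5a1* to *Col5a2* was 0.959 to 1.24 in Control and 0.460 to 0.842 in DOX, without overlap, and 0.659 to 1.10 in Tb and 0.895 to 1.16 in Tb-DOX, with overlap.

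**Figure D4:**
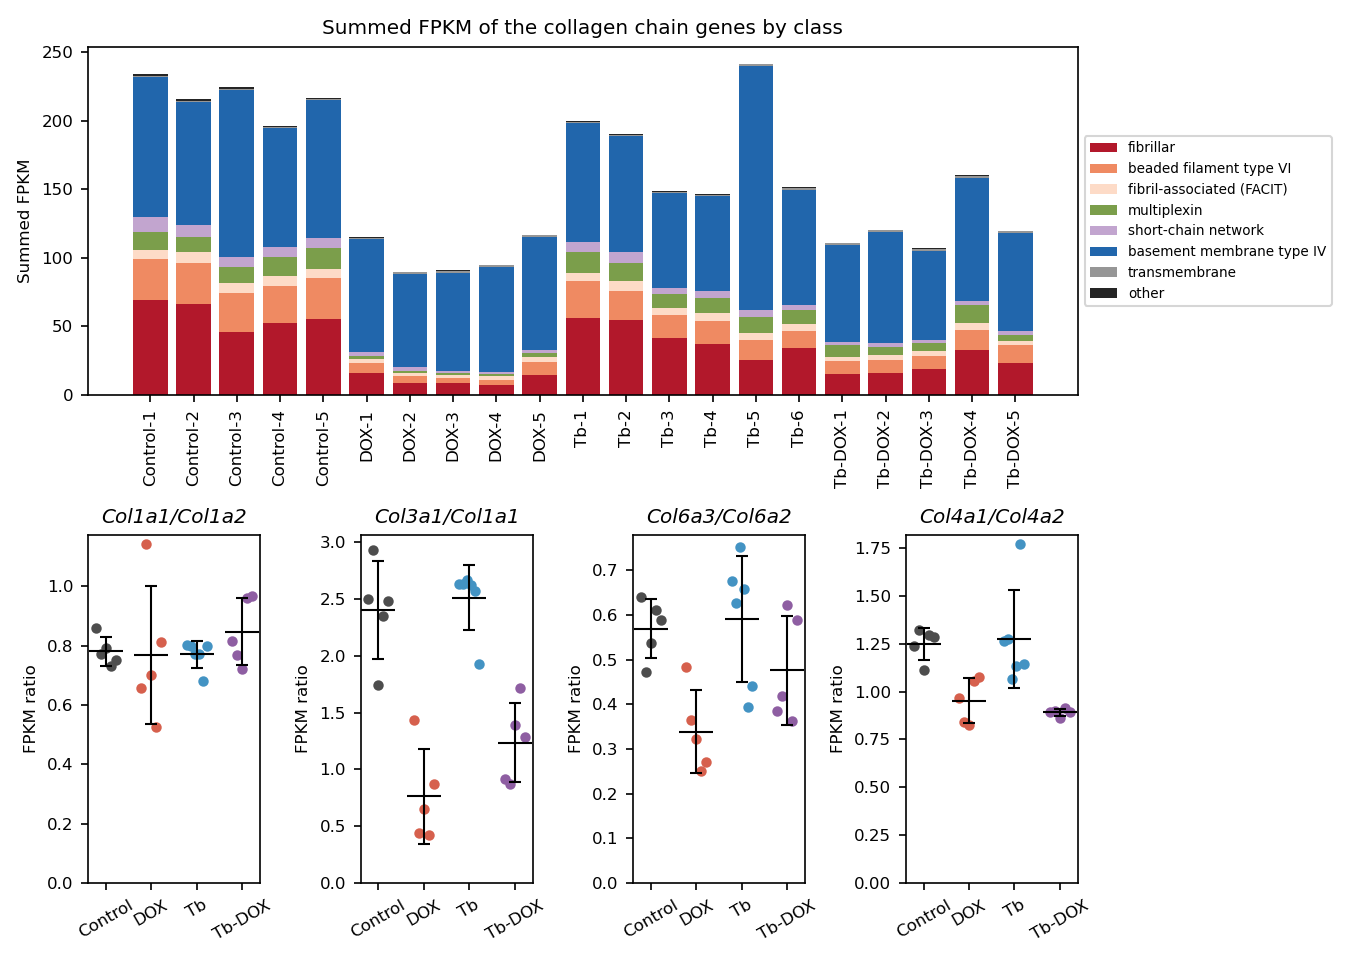
Above, summed FPKM of the collagen chain genes in each library, stacked by class, and below, FPKM ratios of chain pairs by library (points) with mean and SD. The type IV block dominates the DOX bars and that of Tb-5, and Col3a1/Col1a1 and Col4a1/Col4a2 are lower in treated libraries while Col1a1/Col1a2 overlaps between groups.

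Libraries of a group often kept their place over many chains. Among the 23 chains, Tb-DOX-4 had the highest FPKM of its group in 15, Tb-1 in 12 and DOX-1 in 10, while Tb-5 was the lowest of its group in 12, and DOX-4 and Tb-DOX-1 in 10 each.

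The 21 chains below the minimum had at most 140 counts in a library. With no minimum, 2 of them fell and 1 rose in DOX against Control, where 3.38% of the 34543 genes tested fell and 2.78% rose. *Col28a1* had 69, 64, 77, 39 and 50 counts in Control and 23, 13, 7, 10 and 12 in DOX and fell by 2.01 on the log2 scale. *Col8a2*, the usual partner of *Col8a1*, had 24, 18, 20, 18 and 26 counts in Control and 7, 4, 5, 1 and 6 in DOX and fell by 2.02. *Col13a1*, a transmembrane chain, had 20, 18, 34, 17 and 18 counts in Control and 36, 60, 39, 43 and 49 in DOX and was the only collagen chain called higher, by 1.29. *Col4a3*, the partner of *Col4a4*, had 124, 132, 115, 114 and 140 counts in Control and 22 to 112 in Tb, and was called with *Col8a2* in Tb against Control without a minimum, with log2 fold changes of −1.35 and −1.72, where 0.229% of the genes tested fell. *Col28a1* also had a called positive interaction of 1.5, as had 1.12% of the genes in that fit.

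Genes that make, bind and break down collagen were described from lists of 68 genes, 52 of them tested. In DOX against Control, 15 fell and 5 rose, with a median log2 fold change of −0.44, to be read against the shares of all tested genes given above. In Tb-DOX against Tb, 3 fell (*P4ha1*, *Serpinh1* and *Lum*) and 0 rose, with a median of −0.25.

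Of the 14 tested genes of prolyl and lysyl modification, 3 fell without a tumor. *P4ha1*, a catalytic subunit of prolyl 4-hydroxylase, measured 14.5, 17.2, 19.5, 19.98 and 13.6 FPKM in Control and 4.09, 4.45, 4.54, 2.92 and 5.69 in DOX, without overlap, at −1.83 ± 0.24 (SE, adjusted p = 1.33e-05). In Tb-DOX against Tb it fell at −1.04 ± 0.22 (SE, adjusted p = 0.0108). *P3h3* and *Colgalt2* fell by 1.14 and 1.04 in the non-tumor-bearing state. The most abundant gene of the list, *P4hb*, the other subunit of the enzyme, was uncalled at 0.31 ± 0.10 (SE, adjusted p = 0.0222). Among 9 folding and export genes, *Serpinh1*, the collagen chaperone HSP47, was the only gene called. *Serpinh1* measured 40.3, 43.6, 47.7, 57.6 and 47.6 FPKM in Control and 14.1, 10.4, 14.2, 10.2 and 14.1 in DOX, and its log2 fold changes were −1.78 ± 0.20 (SE, adjusted p = 3.31e-06) without and −1.08 ± 0.19 (SE, adjusted p = 0.00277) with a tumor. Of 5 propeptide cleavage genes, *Pcolce* and *Pcolce2*, enhancers of the C-propeptide cut, fell by 1.05 and 1.11, and *Adamts3*, an N-propeptidase, rose by 1.16 on the log2 scale without a tumor.

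Of the 12 tested genes of cross-linking and fibril assembly, 8 fell and 1 rose in DOX against Control. *Lox*, the lysyl oxidase that cross-links fibrils, ran against the chains. *Lox* measured 1.56, 1.32, 1.19, 0.76 and 0.89 FPKM in Control and 8.85, 6.25, 10.1, 14.2 and 5.17 in DOX and rose at 3.10 ± 0.53 (SE, adjusted p = 1.56e-04). In Tb it was 1.06 to 10.3 FPKM, with Tb-5 and Tb-6 highest, and in Tb-DOX 3.85, 5.04, 2.93, 6.32 and 3.67, and the treated and untreated tumor-bearing hearts overlapped (0.19 ± 0.46, SE, adjusted p = 0.856). *Sparc*, a collagen-binding protein, measured 108, 103, 95.4, 95.6 and 95.5 FPKM in Control and 33.3, 23.01, 25.3, 24.7 and 29.3 in DOX and fell at −1.74 ± 0.15 (SE, adjusted p = 2.18e-07). *Lum*, a small proteoglycan of fibrils, fell at −2.21 ± 0.21 (SE, adjusted p = 7.11e-07) without and −1.08 ± 0.20 (SE, adjusted p = 0.00424) with a tumor. *Bgn*, *Ogn*, *Prelp*, *Loxl2*, *Fn1* and *Tnxb* fell by 1.02 to 1.92 on the log2 scale. *Dcn*, the most abundant gene of the list and another small proteoglycan, was uncalled at 0.30 ± 0.13 (SE, adjusted p = 0.0779).

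Of 5 collagen receptor genes, *Mrc2*, an endocytic collagen receptor, fell by 1.56 without a tumor, and the most abundant, *Itgb1*, was uncalled at −0.09 ± 0.12 (SE, adjusted p = 0.582). Of 7 breakdown genes, 3 rose and 0 fell. *Mmp14*, a membrane-bound collagenase, measured 1.38, 1.38, 2.31, 1.12 and 1.51 FPKM in Control and 4.28, 4.63, 8.51, 6.76 and 3.69 in DOX and rose at 1.99 ± 0.35 (SE, adjusted p = 2.01e-04). *Mmp8*, the neutrophil collagenase, had 0 or 1 count in each Control library and 20, 19, 59, 30 and 9 counts in DOX. In tumor-bearing hearts *Mmp8* reached 188 to 3408 counts in Tb and 547 to 2462 in Tb-DOX. *Mmp9*, a gelatinase, had 6, 8, 5, 5 and 1 counts in Control, 21, 3, 29, 21 and 10 in DOX and 211 to 1510 in Tb. In Tb against Control, *Lox*, *Mmp8* and *Mmp9* were the only called genes of the 52 tested in these lists, and all 3 rose. Of all tested genes, 3.48% rose and 0.122% fell in that comparison.

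**Figure D5:**
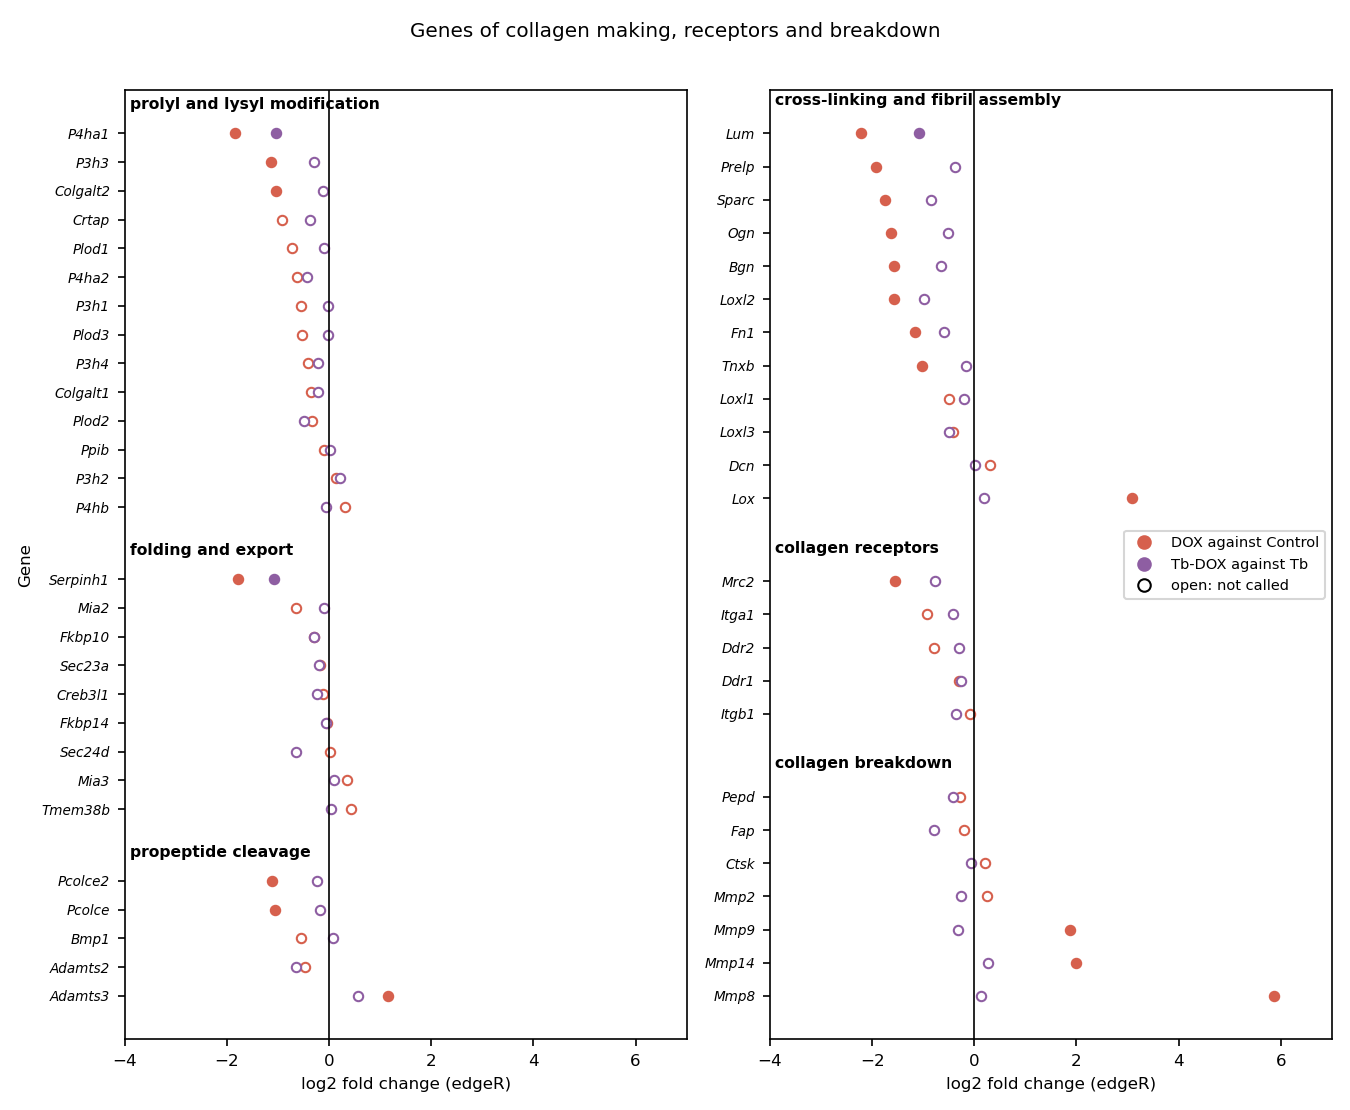
Log2 fold change (x axes, edgeR) of the 52 tested genes of collagen making, receptors and breakdown (rows, by list) for DOX against Control (red) and Tb-DOX against Tb (purple), filled where called. Most red points lie left of 0, Lox, Mmp14, Mmp9, Mmp8 and Adamts3 are filled right of 0, and the point of Mmp8 rests on 0 or 1 count per Control library.

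Markers of fibroblasts, the main source of fibrillar collagen, moved in part with the chains. Of 10 fibroblast markers, all tested, 5 fell in DOX against Control (*Pi16*, *Lum*, *Cd248*, *Dpt* and *Mfap5*), with a median of −0.95. Their summed FPKM was 606 to 719 in Control, 354 to 418 in DOX, 447 to 561 in Tb and 349 to 499 in Tb-DOX, and no marker was at 0 in every library. The defining markers *Pdgfra* and *Tcf21* were uncalled at 0.44 ± 0.12 (SE, adjusted p = 0.00661) and −0.48 ± 0.20 (SE, adjusted p = 0.0634). *Pdgfra*, a receptor, measured 6.35, 6.45, 5.32, 5.7 and 7.35 FPKM in Control and 7.06, 6.59, 9.49, 8.1 and 7.53 in DOX, and *Scara5* was uncalled at 0.47. *Lum* and *Dcn* are in this list as well as in that of fibril assembly. Of 6 tested activated fibroblast markers, *Comp*, *Postn*, *Meox1* and *Cilp* fell, with a median of −1.67 and summed FPKM of 82.6 to 101 in Control, 44.8 to 96.3 in DOX, 50.5 to 118 in Tb and 48.9 to 61.6 in Tb-DOX. In Tb-DOX against Tb, 1 gene of each list fell, *Lum* and *Postn*.

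Of the cardiomyocyte, endothelial and mural markers, 0 of 8, 0 of 7 and 0 of 7 were called in DOX against Control, with medians of 0.34, −0.17 and 0.07. Of 6 macrophage markers, *Adgre1* and *Csf1r* fell, and the list summed to 111 to 137 FPKM in Control, 46.8 to 78.7 in DOX, 153 to 229 in Tb and 98.1 to 264 in Tb-DOX. Of the lists with few tested genes, *Sox9* fell among 2 chondrocyte markers, *Mylpf* rose among 5 skeletal muscle markers, and *Cd3e* rose as the only tested T cell marker. The only tested germ cell marker, *Tnp1*, a sperm chromatin protein, had 17, 7, 6, 2 and 6 counts in Control, 0 in every DOX library, 0 or 1 in Tb and 0, 10, 10, 10 and 9 in Tb-DOX, and was called lower in DOX against Control and higher in Tb-DOX against Tb. The germ cell list summed to 2.11 to 6.32 FPKM in Control, 0 to 0.38 in DOX, 0 to 0.19 in Tb and 0 to 6.23 in Tb-DOX, where Tb-DOX-1 was the library at 0. Schwann, mesothelial, fat cell and tumor epithelium markers had 0 of 2, 0 of 1, 0 of 2 and 0 of 1 called. The part of these cell types in the collagen results was not tested. Without DOX-4 and Tb-5, 16 chains fell in DOX against Control and 5 in Tb-DOX against Tb, and without Control-3, DOX-3 and Tb-5, 15 and 5 did. Leaving out Tb-6 as well gave 15 and 6.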

How the data were processed

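RNA enriched with oligo(dT) beads, according to the methods of the study, was sequenced as paired reads (the labels also name rRNA depletion as an option). According to the submitters' processing notes, cutadapt, FastQC, HISAT2, HTSeq 0.6.1 and DESeq2 1.34.0 were used with build GRCm39. The authors deposited a single table of unnormalized read counts beside FPKM values. The deposited FPKM equal the count divided by exonic length and library total in 100% of 1190511 values (tolerance 0.0051). The strand setting of the counting is not given in the sources used here.

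Genes averaging 0.5 FPKM or more across the 21 libraries (13990 of 56691) were tested on the counts with edgeR 4.0.16 in R 4.3.3 (TMM scaling, quasi-likelihood F test, 1 coefficient per group in 1 fit over all groups, Benjamini-Hochberg adjustment). Fold changes are therefore TMM-scaled and can differ from ratios of FPKM. Their SEs were derived from the test, as the absolute log2 fold change divided by the square root of F. Called genes passed an adjusted p of 0.05 and differed by at least 1 on the log2 scale. The test was tried on simulated counts with known changes, including changes of the interaction. Single members were also compared by two-sided exact permutation tests on log2(FPKM + 0.1). Alternatives were median-ratio scaling, library totals, no minimum, a minimum of 5 FPKM, only the groups compared, DESeq2 1.42.0, limma 3.58.1 with pseudocounts of 0.1 and 1, no minimum fold change, robust moderation, the replicate number as a block, leaving out each library, and, added after the data were seen, leaving out DOX-4 and Tb-5 together, Control-3, DOX-3 and Tb-5 together, and these with Tb-6.

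Depth was 13521200 to 18601445 counts per library, and *mt-Co1* took 6.67% to 10.6% of them. Log2 values of replicates correlated at 0.865 to 0.962. Groups and replicate numbers came from the labels. Named in full were *Col1a1*, *Col1a2*, *Col3a1*, *Col4a1*, *Col4a2*, *Col5a1*, *Col5a2*, *Col6a1*, *Col6a2*, *Col6a3*, *Col8a1*, *Col15a1* and, per comparison and direction, the 3 called chains with the largest fold changes. Of the pathway lists the called and the most abundant genes were named. *Col5a3*, *Col14a1*, *Col20a1*, *Col18a1*, *Col4a5*, *Col23a1* and the chains below the minimum were singled out after their values were seen. The members and the gene lists were chosen with earlier results of these data known. Promoter windows are from RefSeq (GRCm38.p6), where 35 of the 44 chains had an entry.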

Additional observations from a re-analysis of the deposited data

Results flagged for a closer look

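Of 56 groups of 5 or 6 values checked for a library far from the others, 5 held one. The cutoffs are set to flag about 1 in 20 by chance. The flagged items are not independent, since *Col4a1* and *Col4a2* share Tb-5, and *Col1a2* is part of the sum flagged in Tb-DOX-4. *Col4a1* in Tb-5 was 111 FPKM against 30.5 to 41.5 in the other Tb libraries, and *Col4a2* in Tb-5 was 62.6 against 28.2 to 35.7, so both basement membrane partners were high in the same library, which also had 9.74 FPKM of *Cd3e*. *Col4a4* in DOX-3 was 3.26 FPKM against 0.93 to 1.22. *Col1a2* in Tb-DOX-4 was 6.30 FPKM against 3.33 to 4.09, and the summed FPKM of all chains was 160 there against 107 to 120 in the other Tb-DOX libraries.

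The difference made by DOX differed between the states by the test of the interaction in 9 chains, always with a smaller fall in tumor-bearing hearts. The log2 values were 2.26 for *Col15a1*, 1.87 for *Col6a3*, 1.51 for *Col6a2*, 1.41 for *Col6a1*, 1.35 for *Col1a1* and *Col5a1*, 1.15 for *Col16a1*, 1.13 for *Col1a2* and 1.05 for *Col6a6*.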

How the results depend on the processing

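The 16 falling chains of DOX against Control were 6 with a minimum of 5 FPKM, of which 5 were among the 16 and the sixth was *Col4a5*, 11 with limma at a pseudocount of 1, which lowers the fold changes of low genes (*Col5a2*, *Col11a2*, *Col16a1*, *Col18a1*, *Col27a1* and *Col6a6* lost, *Col4a5* gained), and 14 to 17 when 1 library was left out, the lowest without DOX-3. The 4 called chains of Tb-DOX against Tb were 1 at 5 FPKM, 2 with only the compared groups, 2 and 1 with limma at pseudocounts of 0.1 and 1, 7 with no minimum fold change, 6 without Control-3, DOX-3, Tb-5 and Tb-6, and 0 (without Tb-1 or Tb-2) to 5 with a library left out. The 1 chain of Tb against Control was 0 with library totals, 5 FPKM, only the compared groups, either limma fit, the replicate block, without DOX-4 and Tb-5, or without Control-3, DOX-3, Tb-5 and Tb-6, was 3 without a minimum and 2 with no minimum fold change, and was 0 to 1 with a library left out. The 4 chains of Tb-DOX against DOX were 7 with library totals, 2 at 5 FPKM, 2 with limma at 1, 9 with no minimum fold change, 2 without DOX-4 and Tb-5, 2 without Control-3, DOX-3 and Tb-5 with or without Tb-6, and 1 to 8 with a library left out. The 9 interactions were 4 at 5 FPKM, 12 and 8 with limma at 0.1 and 1 (at 1 without *Col16a1* and *Col6a6* and with *Col3a1*), 6 without DOX-4 and Tb-5, 4 without Control-3, DOX-3, Tb-5 and Tb-6, and 5 to 12 with a library left out. The 20 called pathway genes of DOX against Control were 11 at 5 FPKM, 13 with limma at 1, 33 with no minimum fold change and 18 to 21 with a library left out, and the 3 of Tb-DOX against Tb were 1 with either limma fit, 11 with no minimum fold change, 7 without Control-3, DOX-3, Tb-5 and Tb-6 (5 fell, 2 rose) and 1 to 4 with a library left out. A minimum of 5 FPKM tests fewer chains, and otherwise the cause was not tested.

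Uncalled values near 0 changed sign. *Col4a2* in DOX against Control was −0.14 with library totals, −0.033 at 5 FPKM, −0.12 and −0.11 with limma, and −0.039 to 0.11 with a library left out. *Col4a4* there was −0.037 with library totals, −0.18 and −0.086 with limma, −0.43 without Control-3, DOX-3 and Tb-5, −0.44 without these and Tb-6, and −0.35 to 0.19. In Tb-DOX against Tb, *Col4a2* was 0.022 and 0.021 with limma, 0.21 without DOX-4 and Tb-5 and without Control-3, DOX-3 and Tb-5, 0.23 without the latter and Tb-6, and −0.14 to 0.21, and *Col4a4* was 0.024 with limma at 0.1 and −0.26 to 0.18. Library totals moved the median of all genes to −0.14 in DOX against Control and to 0.18 in Tb-DOX against DOX. Of all 622 values of named chains under alternatives other than leaving out 1 library, sign changes included, 549 kept their direction and side of the threshold, as did 886 of 987 with a library left out.

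Same-numbered libraries correlated in their residuals at −0.187 to 0.144, so the numbers do not pair them. With the replicate number as a block, 16 chains were called in DOX against Control, 5 in Tb-DOX against Tb, 0 in Tb against Control, 4 in Tb-DOX against DOX and 6 in the interaction. Counts and exonic length both set which 21 chains lay below the minimum. Over all libraries *Col4a3*, below it, had 1551 counts and the tested *Col20a1* 1344. With 5 or 6 libraries a group, calls near the thresholds depended on which libraries were included.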
